A study of Rattus norvegicus with 7 samples.

Results

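The genes described here encode the proteins of the mitochondrial ribosome, taken as every gene whose symbol is Mrpl or Mrps followed by a digit. The rat gene table listed 78 such coding genes, and 67 of them were represented on the array, by 78 probes. All 67 were well above background on all 7 arrays, and they were tested among 19991 genes and unnamed probes. Their levels were compared in whole cerebellum of 21-day-old female Wistar rat pups from mothers on either of 2 diets. The 3 MDD (methyl donor deficiency) pups were born to dams whose food lacked folate and vitamin B12 and was lowered in choline. The 4 CTRL pups were born to dams on standard food, and both diets ran from 1 month before pregnancy until weaning at 21 days. The sources name the pups as biological replicates but give neither dams nor litters, so the p-values measure the spread between these pups, some of which may share a mother. The labels' title places the study in the context of Wnt signalling. For the mitochondrial ribosome, the question followed was whether its genes differed with the diet, and whether the large and the small subunit differed alike.

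Mitochondria keep their own ribosomes, which translate the few proteins encoded in mitochondrial DNA, all of them core subunits of the respiratory chain and ATP synthase. The ribosomal RNAs come from mitochondrial DNA, but every protein of the ribosome is encoded in the nucleus, made in the cytosol and imported. The large subunit (mostly Mrpl genes) forms peptide bonds and holds the exit tunnel, and the small subunit (mostly Mrps genes) binds the messenger RNA and reads its codons. Some of the proteins descend from bacterial ribosomal proteins, and the others were added during the evolution of mitochondria. Neurons depend heavily on respiration, and inherited defects of single mitochondrial ribosomal proteins are known in humans.

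Signals were 1-colour array intensities, given throughout as log2 signal relative to the 75th percentile of the same array, so that 0 is the level of a fairly bright spot. That percentile was 1140 to 1669 intensity units on MDD arrays and 1305 to 2105 on CTRL arrays, and 74.1% to 79.6% of spots were well above background. All arrays lay on 1 slide. Row 1 of the slide held CTRL 1 to 3, and row 2 held MDD 1 to 3 with CTRL 4, so most of the diet contrast coincides with the row. The labelled tissue was checked against its markers, and all 6 granule neuron and all 4 Purkinje cell markers were measured.

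Mitochondrial ribosomal protein genes were mostly higher in MDD than in CTRL cerebellum. Of the 67 genes, 25 rose at an adjusted p under 0.05 and 0 fell, by limma's test with Benjamini-Hochberg adjustment over all 19991 features. That is 37.3% of these genes, beside 12.7% of all features called higher and 7.72% called lower (20.4% in either direction). At an unadjusted p under 0.05, 32 genes were higher and 0 were lower, beside 7760 of the 19991 features in either direction. The fitted change was above 0 in 57 of 67 genes, with a median of 0.34 on the log2 scale, against a median of -0.03 over all features. The 25 genes that rose were 1.33-fold to 2.36-fold higher, and 15 of them were at least 1.5-fold higher. In whole tissue, more cells of a type and more RNA per cell cannot be told apart.

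**Figure D1:**
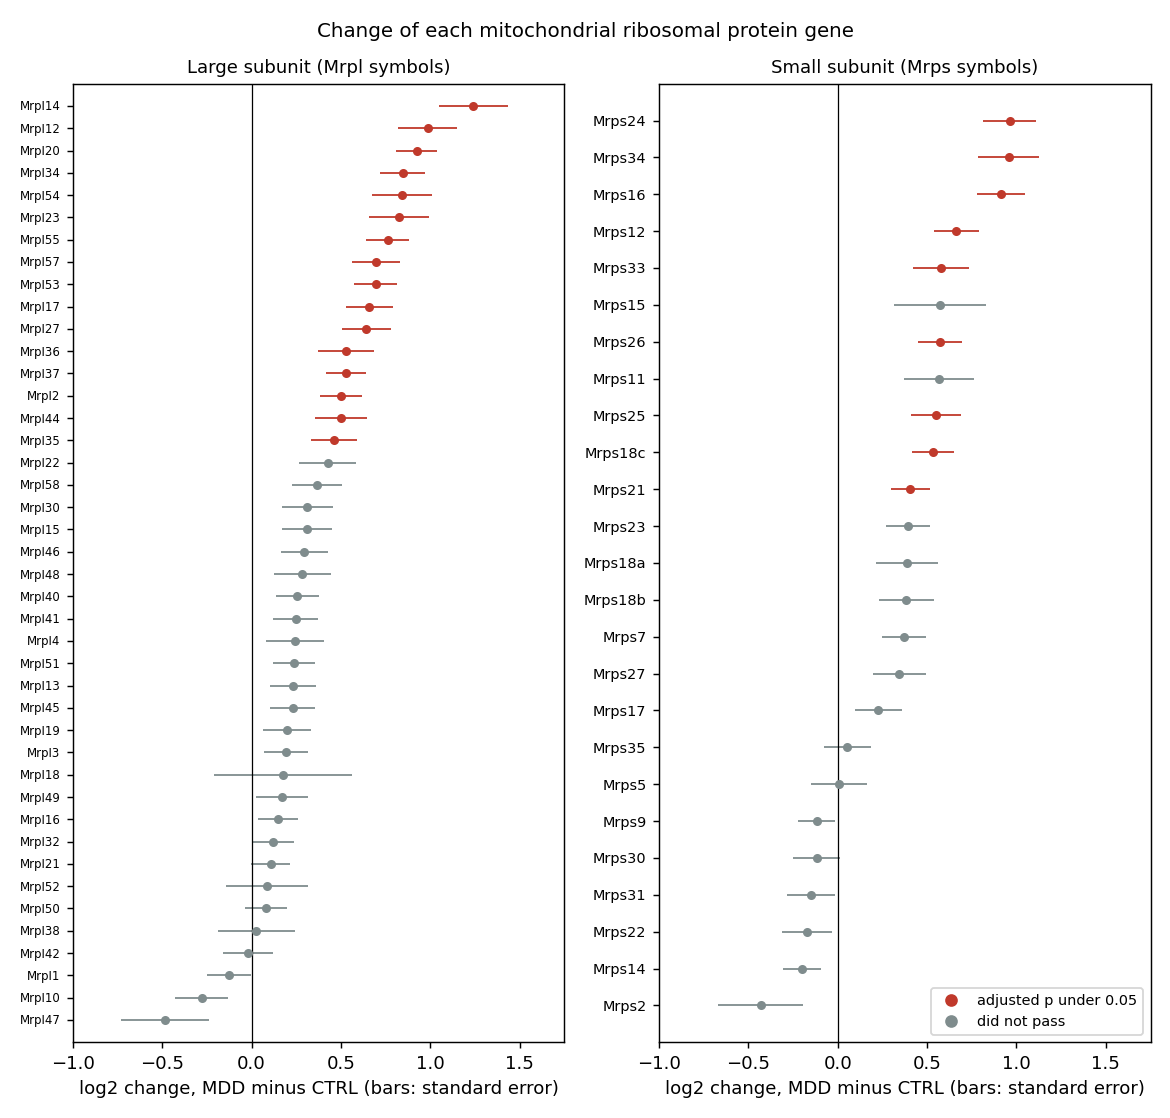
Log2 change (MDD minus CTRL, horizontal axis) of each of the 67 genes, in separate panels for Mrpl and Mrps symbols, with bars for the standard error of the fit. The 25 genes that passed are in red, all to the right of 0, and the other 42 are in grey, 10 of them to the left of 0.

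The MDD and CTRL arrays did not overlap in 38 of the 67 genes. All MDD arrays lay above all CTRL arrays in 36 genes, beside 20.1% of all features, and below them in 2 genes, Mrps9 and Mrps14, beside 16.4% of all features. Every one of the 25 genes that rose was among the 36. The other 11 separated genes did not pass, with adjusted p-values between 0.0560 (Mrps23) and 0.214 (Mrpl13).

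The largest differences were found in genes of both subunits. Mrpl14 (uL14 of the universal nomenclature), which lies on the face of the large subunit turned to the small one, had levels of 3.01, 2.80 and 3.56 on the MDD arrays, against 1.65, 2.02, 1.92 and 1.93 on the CTRL arrays. Every MDD array was well above the highest CTRL array, and the rise was 2.36-fold (log2 1.24, SE 0.19, adjusted p = 0.0103). Mrpl12, the protein of the flexible stalk that recruits translation factors, had 3.54, 3.36 and 4.00 on MDD arrays and 2.62, 2.74, 2.69 and 2.54 on CTRL arrays. Its groups were again apart, and it rose 1.98-fold (log2 0.99, SE 0.16, adjusted p = 0.0108). For Mrpl20, one of the early-binding proteins of the large subunit, the MDD levels were 3.53, 3.31 and 3.48 and the CTRL levels 2.55, 2.59, 2.43 and 2.51. Both groups were tight, and this 1.90-fold rise had the smallest adjusted p among the 67 genes (log2 0.92, SE 0.11, adjusted p = 0.00964).

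In the small subunit the rises were led by Mrps24, Mrps34 and Mrps16. Mrps24 is the counterpart of bacterial S3, which lines the messenger RNA entry, and Mrps34 is a protein that bacteria lack. Levels of Mrps24 were 2.28, 2.11 and 2.63 on MDD arrays, against 1.28, 1.49, 1.40 and 1.35 on CTRL arrays, a 1.95-fold rise (adjusted p = 0.0103). Mrps34 stood at 2.31, 2.27 and 2.86 on MDD arrays, against 1.32, 1.60, 1.63 and 1.55 on CTRL arrays, a 1.94-fold rise (adjusted p = 0.0124). In both genes the third MDD array was the highest of all 7. Mrps16, whose bacterial counterpart takes part in assembly of the small subunit, had 3.09, 2.85 and 3.23 on MDD arrays and 2.0, 2.27, 2.16 and 2.13 on CTRL arrays. It rose 1.88-fold (adjusted p = 0.00979), without overlap of the groups.

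**Figure D2:**
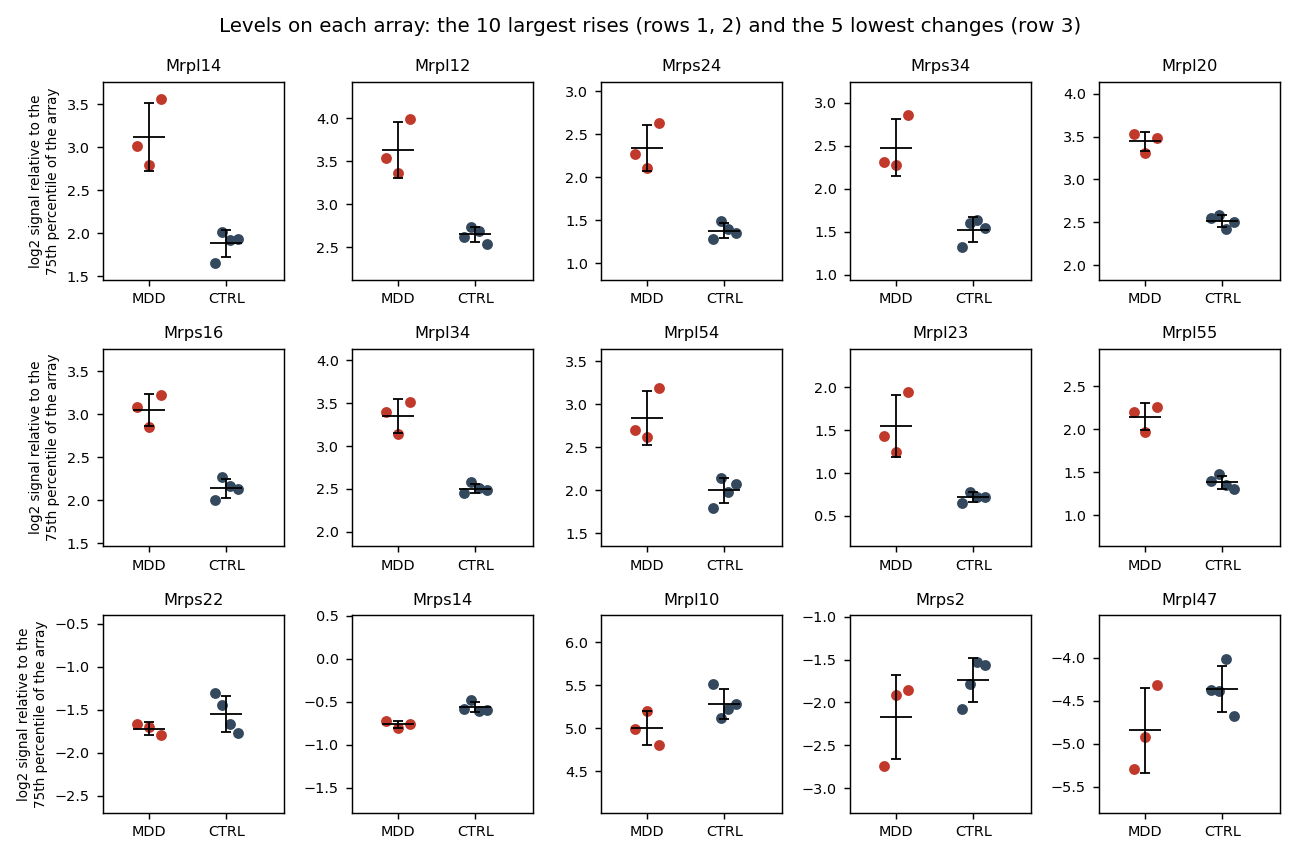
Level on each array (log2 signal relative to the 75th percentile of the array) for the 10 genes with the largest rise and, in the bottom row, the 5 with the lowest change, MDD in red and CTRL in blue, with group means and SDs. In the top 2 rows all MDD points lie above all CTRL points, while in the bottom row only Mrps14 has groups apart.

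At the lower end no gene passed the test, and the values were more scattered. Mrpl47, a large subunit protein near the exit of the tunnel, had the lowest change, with -5.30, -4.92 and -4.32 on MDD arrays and -4.37, -4.38, -4.01 and -4.67 on CTRL arrays. The groups overlapped, and the change was -0.48 (SE 0.24, adjusted p = 0.177). Mrps2 was at -2.74, -1.92 and -1.86 on MDD arrays and at -2.07, -1.79, -1.53 and -1.56 on CTRL arrays, with the first MDD array the lowest of all 7 (change -0.43, SE 0.24, adjusted p = 0.212). Mrpl10 and Mrps22 gave -0.28 and -0.17, with overlapping groups. Mrps14 had close values in each group, -0.73, -0.81 and -0.76 on MDD arrays against -0.58, -0.48, -0.61 and -0.59 on CTRL arrays. Its groups were apart by a small margin and the change was -0.20 (SE 0.11, adjusted p = 0.198).

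Within the large subunit, the genes around the catalytic site and the tunnel gave unequal values. Mrpl2, which helps to build the peptidyl transferase centre, rose 1.42-fold (adjusted p = 0.0243), with 1.85, 1.77 and 1.78 on MDD arrays and 1.13, 1.43, 1.31 and 1.32 on CTRL arrays. Mrpl27, whose tail reaches that centre in bacteria, rose 1.56-fold (adjusted p = 0.0191). Mrpl3 and Mrpl16, also proteins of the core, showed changes of 0.19 and 0.15 and did not pass. Of the proteins that line or surround the exit tunnel, Mrpl23 rose 1.77-fold (adjusted p = 0.0177), with 1.43, 1.25 and 1.95 on MDD arrays and 0.65, 0.78, 0.72 and 0.72 on CTRL arrays. Mrpl4 had a change of 0.24 and Mrpl22 one of 0.43, and neither passed (adjusted p = 0.294 and 0.0858). Mrpl45, which ties the ribosome to the inner membrane in mammals, gave 0.23 (adjusted p = 0.216).

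Genes of the 2 movable stalks of the large subunit had unlike changes, and of those named here only Mrpl12 passed in the main fit. The protein of the factor-binding stalk, Mrpl12, was 1.98-fold higher, whereas Mrpl10, which anchors Mrpl12 to the ribosome, had 4.99, 5.20 and 4.81 on MDD arrays and 5.52, 5.11, 5.22 and 5.28 on CTRL arrays. Its groups overlapped here (log2 -0.28, adjusted p = 0.194), but after quantile normalization Mrpl10 was called lower (adjusted p = 0.0275), as it was in the authors' deposited table. Mrpl10 was the only one of the 67 genes called lower under either. These values are from its brighter probe. Its other kept probe was much dimmer (means of -2.02 on MDD and -2.16 on CTRL arrays) and had a change of 0.13. Mrpl1, of the stalk on the other side, where spent transfer RNA leaves, showed -0.13 (adjusted p = 0.468).

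Genes for proteins with further functions also differed among themselves. Mrpl44, whose fold resembles that of RNase III, rose 1.41-fold, with 0.91, 0.54 and 0.71 on MDD arrays and 0.21, 0.41, 0.28 and -0.01 on CTRL arrays (adjusted p = 0.0455). The margin between its groups was narrow. Mrpl58, a peptidyl-tRNA hydrolase that became part of the ribosome, was higher on every MDD array but did not pass (log2 0.37, adjusted p = 0.0908). Mrpl32, which must be cut by a protease of the inner membrane before it is built in, gave 0.12 (adjusted p = 0.476), and Mrpl41 gave 0.25 (adjusted p = 0.187).

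Further rises were seen in other structural proteins of the large subunit. Mrpl34 had 3.39, 3.14 and 3.52 on MDD arrays and 2.45, 2.58, 2.51 and 2.48 on CTRL arrays, a 1.80-fold rise (adjusted p = 0.00991). Mrpl55, which like Mrpl34 has a bacterial counterpart, had 2.21, 1.97 and 2.27 on MDD arrays and 1.40, 1.48, 1.35 and 1.31 on CTRL arrays, a 1.70-fold rise (adjusted p = 0.0106). In both, the second MDD array was the lowest of its group and still above every CTRL array. Mrpl54, which bacteria lack, had 2.70, 2.61 and 3.19 on MDD arrays and 1.80, 2.14, 1.98 and 2.07 on CTRL arrays, a 1.79-fold rise (adjusted p = 0.0165). Mrpl57, likewise without a bacterial counterpart, rose 1.62-fold (adjusted p = 0.0152). The other genes that rose were Mrpl17, Mrpl35, Mrpl36, Mrpl37, Mrpl53, Mrps21, Mrps25, Mrps26 and Mrps33, between 1.33-fold and 1.62-fold higher.

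In the small subunit, Mrps12, the protein of the decoding centre, rose 1.58-fold (adjusted p = 0.0138), with 2.24, 2.10 and 2.40 on MDD arrays and 1.46, 1.66, 1.67 and 1.55 on CTRL arrays. Mrps7 and Mrps11, bound to the ribosomal RNA of the head and platform in bacteria, did not pass (log2 0.37 and 0.56, adjusted p = 0.0633 and 0.0733), although their groups did not overlap. Mrps5 had a change of 0.01, with an SE of 0.15. Mammals carry 3 relatives of bacterial S18, at different places of the ribosome. Mrps18c rose 1.45-fold (adjusted p = 0.0221). Mrps18b and Mrps18a gave 0.38 and 0.39, with wider spread among the arrays (adjusted p = 0.104 and 0.134). A difference between these 3 genes was not tested. Beyond these, 2 genes were singled out after their values were seen, for their spread. Mrps15 had -0.99, -1.02 and 0.06 on MDD arrays and -1.18, -1.42, -1.10 and -1.21 on CTRL arrays, so that the third MDD array stood far above the other two (log2 0.57, SE 0.26, adjusted p = 0.137). Mrpl18, of the large subunit, varied widely in both groups, with SDs of 0.740 on MDD and 0.546 on CTRL arrays, and its change of 0.18 had the largest SE of all 67 genes (0.39).

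Genes rose in similar shares in the large and the small subunit. Of 42 Mrpl genes 16 rose (38.1%), and of 25 Mrps genes 9 rose (36.0%). The median change was 0.29 for Mrpl and 0.39 for Mrps genes, a difference of -0.10 between the medians. It kept its sign under every alternative tried, all of which drew on the same arrays. With the single-gene standard errors between 0.10 and 0.39, this is a description only, and a difference between the subunits was not tested. Mrps30 and Mrps18a (log2 -0.12 and 0.39, neither passed) are named for the small subunit but sit in the large subunit of the mammalian structure. With both moved there, 16 of 44 large subunit and 9 of 23 small subunit genes rose, with medians of 0.29 and 0.39.

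By origin, 16 of 38 genes with a bacterial counterpart rose (median log2 change 0.39), as did 9 of 29 genes of proteins found only in mitochondria (median 0.30). Mrps18a and Mrps18b were counted with the second kind, as in the unified nomenclature of ribosomal proteins. In the large subunit these counts were 11 of 25 and 5 of 19, and in the small subunit 5 of 13 and 4 of 10. All of these shares exceeded the 12.7% of all features, and none was tested against another. Among genes with a bacterial counterpart, the large and small subunit medians were 0.31 and 0.41. After quantile normalization they were 0.33 and 0.26, so the order of the subunits was not kept there. For the genes found only in mitochondria they were 0.26 and 0.39, and 0.14 and 0.35 after that normalization.

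Within each gene the MDD arrays did not move by the same amount. Measured from the CTRL mean of each gene, the median deviation over the 67 genes was 0.43, 0.20 and 0.45 on MDD arrays 1 to 3, against -0.01, 0.08, 0.01 and -0.04 on CTRL arrays 1 to 4. MDD 2 was the lowest MDD array in 45 of 67 genes and in 24 of the 25 that rose, and MDD 3 the highest in 36. Even so, 53 of 67 genes on MDD 2 lay above their CTRL mean, beside 56 on MDD 1 and 58 on MDD 3. The SD was larger in MDD than in CTRL in 55 of 67 genes, as in 72.3% of all features, with median SDs over the 67 genes of 0.193 and 0.111.

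**Figure D3:**
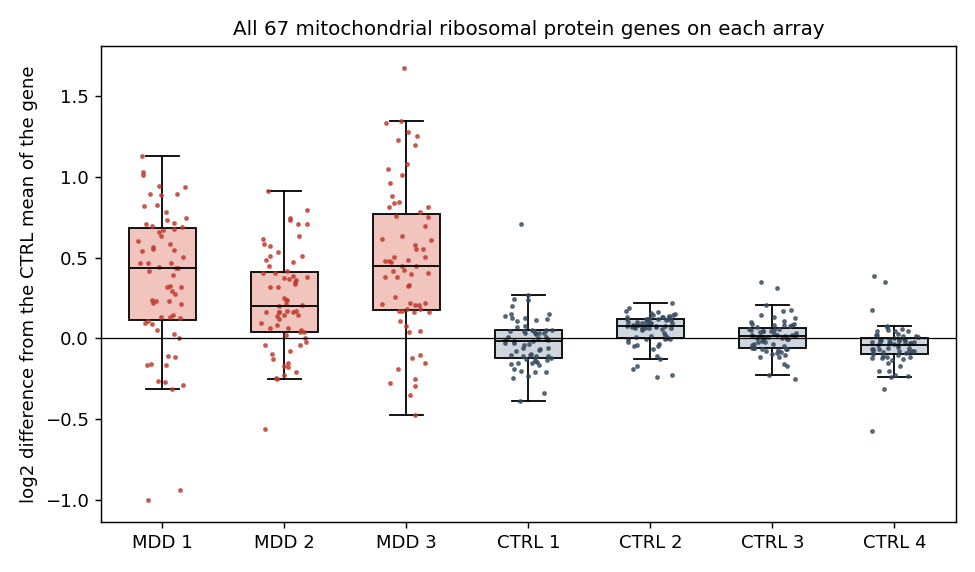
Difference of each of the 67 genes from its own CTRL mean (log2, vertical axis) on each of the 7 arrays, as points with box plots (median, quartiles, whiskers to 1.5 times the box). The MDD boxes have medians of 0.43, 0.20 and 0.45, with MDD 2 nearest to the CTRL boxes, whose medians lie between -0.04 and 0.08.

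The number of genes called depended on single arrays, as did the number over all features. Without MDD 2 it was 29, and without CTRL 2, CTRL 3 or CTRL 4 it was 16, 13 and 10, in each case with 0 lower and with 29 to 37 genes higher at an unadjusted p under 0.05. In the same order, 2905, 1347, 1083 and 799 of the 19991 features were called higher. At an unadjusted p under 0.05, 8286, 6656, 6548 and 6346 features passed in either direction. Among the arrays of row 2 alone, MDD 1 to 3 were set against CTRL 4. There the median change of the 67 genes was 0.41, against 0.01 over all features, and 56 of the 67 were above 0. These included all 25 that had risen. For those 25 the sign was fixed beforehand, since every MDD array lay above every CTRL array. With the row as a term, 0 of the 67 genes passed (smallest adjusted p 0.138). At an unadjusted p under 0.05, 24 genes were then higher, beside 4072 of all features in either direction.

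The change moved with properties of the genes that the selection did not use. Over the 67 genes, the change had a Spearman correlation of -0.40 with gene length and of 0.60 with the mean signal, as a description over genes of the same libraries. Of the 7 genes of 2 kb or shorter 6 rose, with a median change of 0.70. These were Mrpl34, Mrpl57, Mrpl53, Mrps34, Mrps26 and Mrpl17, and Mrpl41 was the one that did not pass. Of the 10 genes over 20 kb, 0 rose and the median was 0.08. Over all named genes the same order was seen, with 23.4% called higher among those of 2 kb or shorter (median 0.13) and 3.85% among those over 20 kb (median -0.16).

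When each array's trend with signal and gene length over all named genes had been removed, 7 of the 67 genes were called higher and 2 lower, beside 6.43% and 4.71% of the 11965 genes with a length. The median change was then 0.11, and 43 genes were above 0. The 7 were Mrpl14 (log2 1.01, adjusted p = 0.0273), Mrpl23, Mrps24, Mrps27, Mrpl12, Mrpl20 and Mrps16, of which only Mrps27 was not among the 25. The 2 lower genes were Mrpl10 (log2 -0.72, adjusted p = 0.0361) and Mrps14 (log2 -0.41, adjusted p = 0.0411). Of the 25 genes, 24 kept a change above 0, and Mrps26 was at -0.03. Of the genes of 2 kb or shorter, Mrpl34, Mrpl57, Mrpl53 and Mrpl17 had changes of 0.16, 0.03, 0.05 and 0.08. Mrps34 had 0.38 and Mrpl41 -0.37, and neither passed (adjusted p = 0.0640 and 0.0865). After quantile normalization 16 genes were called higher, all of them among the 25, beside 10.5% of all features higher and 7.99% lower. What gives rise to the trend was not tested.

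**Figure D4:**
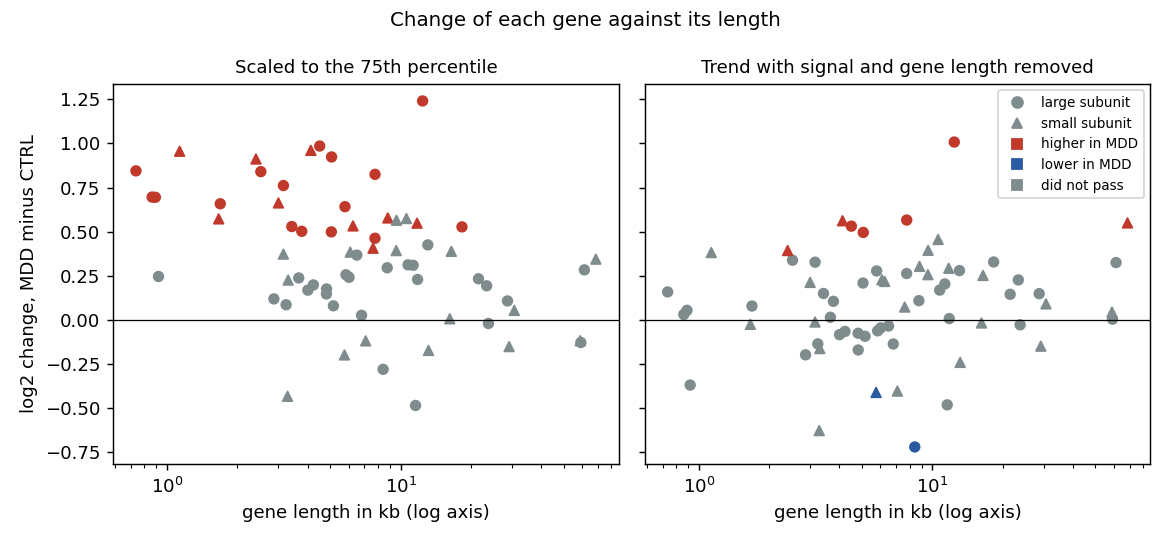
Log2 change (MDD minus CTRL) of the 67 genes against gene length in kb on a log axis, with the array scaling alone (left) and after removal of each array's trend with signal and gene length (right), circles for Mrpl and triangles for Mrps genes. On the left 25 genes are called and Mrpl14 has the highest change at 1.24, with 6 of the 7 genes of 2 kb or shorter called and 0 of the 10 over 20 kb, and on the right 7 higher and 2 lower genes are called and Mrpl14 stands above the others at 1.01.

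A second kept probe was available for 10 of the genes, and in 6 of them both probes changed in the same direction. The second probes of Mrps16 and Mrpl54 had changes of 0.83 and 0.90, next to 0.91 and 0.84 for the probes reported above, and those of Mrpl2 0.49 and 0.50. In 4 genes the signs differed. Mrpl17 had 0.66 and -0.03, Mrpl35 0.46 and -0.08, Mrps21 0.41 and -0.17, and Mrpl10 -0.28 and 0.13, the value of the brighter probe given first. Brightness was the mean over MDD and CTRL arrays together. The Mrpl35 probe used was the brighter only on MDD arrays (means of 0.16 against -0.23) and the dimmer on CTRL arrays (-0.30 against -0.15). Its choice therefore depended on the difference that was tested. The rises of Mrpl17, Mrpl35 and Mrps21 thus rest on 1 of 2 probes, as do the calls of Mrpl10 as lower under other settings. With the mean over all kept probes of a gene, 22 of the 67 genes were called higher and 0 lower, beside 2540 and 1603 of the 19991 features. The gene table also lists Mrpl41l1, Mrpl42l1 and Mrps21l, close relatives of Mrpl41, Mrpl42 and Mrps21, and whether their transcripts reach these probes was not tested.

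Promoters of mitochondrial ribosomal protein genes are known to hold sites for NRF1, for the ETS factor GABP and for YY1, and 53 of the 67 genes had exactly 1 RefSeq promoter window (GRCr8, 250 bases before to 50 after the start). The letters searched on both strands were CCGGAAG for GABP, AAGATGGCG for YY1 and GCATGCGC for NRF1, and the full NRF1 palindrome, in which a further GC stands before GCATGCGC. The last contains the shorter NRF1 word on both strands, so these searches overlap. CCGGAAG was present in 18 windows (34.0%), beside 16.0% of the windows of 9384 named genes tested. AAGATGGCG was found in 8 (15.1% beside 3.22%), the NRF1 word in 5 (9.43% beside 4.47%) and the full palindrome in 4 (7.55% beside 1.59%). At least 1 of them was in 50.9% of the windows, beside 21.6%. CpG dinucleotides were about as frequent, with a median of 18 per window, beside 20.

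Windows with the same motif belonged to genes that rose and to genes that did not. For each of 2 motifs, the windows of the genes with the largest rise and with the lowest change among its holders are printed here, from RefSeq, build GRCr8, 5′ to 3′ on the strand of the gene, with the matches in capitals. Mrpl17 (chr1:169575650-169575949, minus strand, 1.58-fold higher) and Mrpl32 (chr17:55260401-55260700, plus strand, log2 0.12, not passed) hold the NRF1 palindrome, each with a further NRF1 word. Mrpl20 (chr5:171690948-171691247, plus strand, 1.90-fold higher) and Mrps31 (chr16:76324016-76324315, minus strand, log2 -0.15, not passed) hold the GABP motif, in Mrpl20 behind the start and in Mrps31 before it.
Mrpl17: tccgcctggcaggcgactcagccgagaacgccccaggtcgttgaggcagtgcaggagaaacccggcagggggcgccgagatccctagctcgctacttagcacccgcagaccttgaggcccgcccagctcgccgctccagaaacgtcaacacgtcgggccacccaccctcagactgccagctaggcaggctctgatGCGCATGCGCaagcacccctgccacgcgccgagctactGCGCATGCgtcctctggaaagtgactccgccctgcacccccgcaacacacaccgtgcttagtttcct
Mrpl32: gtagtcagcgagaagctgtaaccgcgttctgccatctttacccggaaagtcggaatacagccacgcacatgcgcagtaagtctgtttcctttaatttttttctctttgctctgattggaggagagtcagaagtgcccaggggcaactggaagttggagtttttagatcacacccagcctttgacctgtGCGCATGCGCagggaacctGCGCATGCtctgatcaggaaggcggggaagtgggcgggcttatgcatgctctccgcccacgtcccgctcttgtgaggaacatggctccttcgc
Mrpl20: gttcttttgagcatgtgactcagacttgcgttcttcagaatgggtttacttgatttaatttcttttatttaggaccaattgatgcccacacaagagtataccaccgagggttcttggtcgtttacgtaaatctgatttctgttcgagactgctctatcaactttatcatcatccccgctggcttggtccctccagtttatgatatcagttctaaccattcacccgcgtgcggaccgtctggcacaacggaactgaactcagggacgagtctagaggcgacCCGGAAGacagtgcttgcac
Mrps31: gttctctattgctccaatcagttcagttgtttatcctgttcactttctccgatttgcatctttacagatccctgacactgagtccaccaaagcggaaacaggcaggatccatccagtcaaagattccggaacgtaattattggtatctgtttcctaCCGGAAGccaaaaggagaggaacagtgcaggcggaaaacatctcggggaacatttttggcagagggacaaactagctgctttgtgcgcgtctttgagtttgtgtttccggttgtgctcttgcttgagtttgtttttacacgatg

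Of the 18 genes whose window held CCGGAAG, 8 rose (median change 0.39), and of the 35 without it 11 rose (median 0.26). Of the 8 with AAGATGGCG 2 rose, Mrpl36 (1.44-fold, adjusted p = 0.0482) and Mrpl37 (1.44-fold, adjusted p = 0.0191), and of the 45 without it 17 rose. Of the 4 with the NRF1 palindrome 2 rose, Mrpl17 and Mrpl44. These counts describe letters in a window and were not tested.

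Among 9 measured nuclear regulators of mitochondrial genes, the factors themselves included, 0 rose and 1 fell, beside 12.7% and 7.72% of all features, so the count does not set them apart. Of the 9, 8 had a change below 0 (median -0.29). The one that fell was Gabpa, the DNA-binding subunit of GABP, with -1.97, -1.80 and -2.08 on MDD arrays and -1.50, -1.34, -1.46 and -1.24 on CTRL arrays. Its groups were apart, and it was 1.48-fold lower (log2 -0.57, SE 0.13, adjusted p = 0.0219). Nrf1 had -0.07 and Yy1 -0.37, and neither passed (adjusted p = 0.787 and 0.108). Ppargc1a, the coactivator PGC-1alpha, and Esrra, a nuclear receptor that works with it, lay just outside the threshold on opposite sides of 0. Ppargc1a had -0.65 (adjusted p = 0.0624) and Esrra 0.35 (adjusted p = 0.0620), each with its groups apart.

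Lists of other genes of mitochondrial translation were counted in the same fit, without a test of one list against another. Of all features 12.7% were called higher and 7.72% lower, and the counts of the synthetase, assembly and genome upkeep genes lay near or below these shares. Of 5 further ribosomal protein genes that carry other symbols, 2 rose and 0 fell (median 0.33). These were Gadd45gip1, a protein of the large subunit, up 1.72-fold, and Chchd1, of the small subunit, up 1.52-fold (adjusted p = 0.0224 and 0.0418). Of 14 translation factors and helpers, 3 rose and 0 fell, with a median of -0.10. Tufm, the elongation factor that brings transfer RNA to the ribosome, had 2.88, 2.72 and 2.90 on MDD arrays and 2.18, 2.43, 2.47 and 2.20 on CTRL arrays, a 1.43-fold rise (adjusted p = 0.0295). The initiation factor gene Mtif3 rose 1.40-fold, and Oxa1l, which inserts new proteins into the inner membrane, 1.29-fold (adjusted p = 0.0404 and 0.0442).

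Of 16 mitochondrial tRNA synthetase genes, 1 rose and 1 fell, with a median of -0.01. Pars2, for proline, rose 1.64-fold (adjusted p = 0.0146), and Nars2, for asparagine, was 1.51-fold lower (adjusted p = 0.0270). Of 21 assembly factors, 3 rose and 0 fell (median 0.05). Mpv17l2, a membrane protein needed for ribosome assembly in human cells, rose 1.58-fold (adjusted p = 0.0280). Malsu1, which in humans binds the product of Mrpl14 during assembly, rose 1.34-fold, and the ribosomal RNA methyltransferase gene Mrm3 1.36-fold (adjusted p = 0.0478 and 0.0389). Of 16 genes of mitochondrial genome upkeep and transcription, 1 rose and 1 fell (median -0.07). Hsd17b10, a subunit of mitochondrial RNase P, rose 1.90-fold (adjusted p = 0.0272), and Tfb2m, which opens mitochondrial promoters for the RNA polymerase, was 1.42-fold lower (adjusted p = 0.0186). Kgd4, once named Mrps36 and now placed with the oxoglutarate dehydrogenase complex, had a change of 0.00. With the trend with signal and gene length removed, Tufm, Mtif3, Oxa1l, Gadd45gip1, Chchd1, Hsd17b10, Mpv17l2 and Malsu1 no longer passed, nor did Nars2.

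The ribosome of the cytosol was counted for comparison. Of 73 cytosolic ribosomal protein genes 60 rose (82.2%), with a median change of 0.73. In the mitochondrial set 25 of 67 rose (37.3%), with a median of 0.34, and of all features 12.7% were called higher. Their median over the arrays was 0.79, 0.53 and 0.89 for MDD 1 to 3 as deviation from the CTRL mean, so MDD 2 was the lowest there too. With the trend removed, the median changes were close, 0.11 for the mitochondrial and 0.12 for the cytosolic set, but the calls were not. They numbered 7 of 67 higher and 2 lower in the mitochondrial set and 17 of 73 higher and 0 lower in the cytosolic set, beside 6.43% higher and 4.71% lower of all genes with a length. A difference between the sets was not tested.

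Markers of some cell types also differed between the diets, and their part in the result was not tested. The marker calls stand beside 12.7% of all features called higher and 7.72% called lower. Of 6 granule neuron markers, 3 fell and 0 rose, and their summed linear level, in units of the 75th percentile of the array, was 28.9 to 38.8 on MDD arrays and 42.0 to 50.9 on CTRL arrays. Of 5 microglia markers, 4 rose and 1 fell (Cx3cr1), with summed levels of 7.0 to 9.28 on MDD arrays and 5.09 to 5.53 on CTRL arrays. Of 4 Purkinje cell markers, 1 rose and 1 fell (summed level 147 to 224 on MDD arrays and 120 to 142 on CTRL arrays). The 4 choroid plexus, 3 blood and 3 meningeal fibroblast markers included 0 called genes. The summed level of the blood markers was 135 to 385 on MDD arrays and 104 to 182 on CTRL arrays. Astrocyte and Bergmann glia markers gave 0 called of 4, but their summed level was apart between the groups, with 274.9 to 304.7 on MDD arrays and 227.9 to 248.8 on CTRL arrays. Aldoc, the brightest of them (means of 7.85 on MDD and 7.47 on CTRL arrays), makes up most of this sum. It was higher on every MDD array (log2 0.37, adjusted p = 0.0540). Gfap had a change of 0.41, but Slc1a3 and Aqp4 had -0.06 and -0.20, all with overlapping groups. Oligodendrocyte markers gave 1 lower of 4 (Mobp), with summed levels of 213 to 333 on MDD arrays and 225 to 248 on CTRL arrays. Every marker of the lists named here was well above background on at least 3 arrays.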

How the data were processed

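Total RNA of cerebellum was labelled with Cy3 and hybridised to Agilent rat arrays, per the labels. The deposited scanner tables hold spot intensities, whose processed form has local background subtracted and spatial trends taken out, per the file headers. The probe grid refers to rn4. Deposited spot flags are a score of 0 or 1 set by Feature Extraction. A further deposited table holds the authors' normalized intensities, by a method not given in the sources used here.

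For the main values the processed signal was divided by its 75th percentile on the array and put on a log2 scale. Outlier spots were left out, spots of a probe averaged, and the 22255 of 30367 probes kept that passed the flag for signal well above background in 3 or more of the 7 arrays. The files give accessions, so symbols came from a RefSeq gene table (GRCr8; 18355 probes, 15443 genes). Since its build is not that of the grid, no probe coordinates are given. The promoter windows and gene lengths are those of GRCr8. The kept probe with the highest mean over all arrays, MDD and CTRL together, stood for a gene (11966 named genes, 8025 unnamed probes). Of the 78 coding Mrp genes, 11 had no matched probe and are not analysed here: Mrpl28, Mrpl33, Mrpl39, Mrpl41l1, Mrpl42l1, Mrpl43, Mrps6, Mrps10, Mrps21l, Mrps28 and Mrps36l1. The second probe of Mrpl30 was below background on all arrays.

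MDD was tested against CTRL by moderated linear models (lmFit and eBayes of limma 3.58.1, R 4.3.3; two-sided, no covariate, Benjamini-Hochberg over 19991 features, threshold 0.05). On simulated data of this size the test recovered 53 of 100 changes of 1 and 91 of 100 of 2 on the log2 scale, with 9 false calls. The simulation used independent noise of equal spread in both groups, with no slide row effect and no trend with signal or length. Its rates need not hold for these arrays. The number of arrays limits the precision. The replicate numbers are not stated to mark a shared dam, so they were not taken to pair pups. Deviations of same-numbered MDD and CTRL arrays had correlations of 0.09, -0.16 and 0.24, beside -0.25 to 0.18 for unlike numbers. With so few arrays these values cannot decide whether the numbers pair pups. The alternatives were other scalings and backgrounds, filters and probe rules, removal of each array's loess trend with mean signal and gene length, the slide row, a replicate block, and leaving out each array. Normexp used the median spot signal. The members, gene lists and tests were chosen with earlier results of these data known. The genes given with values were the 10 largest rises, the 5 lowest changes, the smallest p per subunit, members of well-known role, members whose probes disagree, and called genes of the other lists. The results of 1 further marker list are not reported here.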

Additional observations from a re-analysis of the deposited data

Results flagged for a closer look

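Among 53 named genes checked for an array far from the rest of the CTRL group, 1 was flagged, and chance flags about 1 group in 20. Pars2, the mitochondrial prolyl-tRNA synthetase, had a level of -1.28 on CTRL 4, while the other CTRL arrays lay between -1.04 and -0.995. All MDD arrays were above all of these values.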

How the results depend on the processing

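The direction of change was compared for the 25 genes that rose and the 13 called genes of the other mitochondrial lists (38 in all). It was the same as in the main setting under every alternative except the removed trend. There it was so for 36, with Oxa1l at -0.00096 and Mrps26 at -0.025. In all 38 genes the groups did not overlap. Their direction was therefore fixed beforehand in the fits that drop arrays or use the replicate block or the slide row. Of the 25 genes called higher, quantile normalization kept 16 (small subunit 5) and called 1 lower, the authors' deposited table kept 21, called 23 in all and 1 lower, and testing all probes without a filter gave 16 (small subunit 4). With no filter 1205 features of all were higher and 388 lower, and with normexp 953 were lower. With the trend removed, 7 genes were higher (large subunit 4, small 3) and 2 lower, the median change was 0.11, and 769 of all genes were higher and 563 lower. Of the other lists, the further ribosomal proteins had 1 call after quantile normalization and 0 with the trend removed, and with the trend removed translation factors had 1 call, a fall (Mtif2), in place of their 3 rises, and assembly factors 1 rise (Mrm3). Genome upkeep genes then had 0 rises and 3 falls (Tfb2m, Trmt10c and Twnk). In each case the cause was not tested. The replicate block, over numbers 1 to 3 of both groups, gave 0 calls in either direction among these genes and among all features (smallest adjusted p among these genes 0.0649). At an unadjusted p under 0.05, 25 of these genes were higher and 1 lower with the block. Over the 19991 features, 6159 passed that bound in either direction. With the slide row as a term, 0 features were higher and 1 lower, and within row 2 there were 1 and 6, with 0 of these genes and 0 of either subunit called. With single arrays left out, the called genes numbered 10 to 29 (large subunit 7 to 19, small 3 to 10), and all features 799 to 2905 higher and 223 to 2329 lower. These fits use fewer arrays. With 3 MDD pups, 1 slide and rows that mostly separate the diets, row and diet cannot be told apart beyond the row 2 values given above.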
